A study of Mus musculus with 2 samples.

Results

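The 9 genes described here are a set of transcription factors, receptors and secreted or adaptor proteins used to recognise follicular helper T cells (Tfh cells): Cxcr5, Bcl6, Pdcd1, Tox, Tox2, Ascl2, Pou2af1, Sh2d1a and Sostdc1. They were taken by symbol from the 32285 genes of the deposited tables, where each of the 9 symbols occurred once. Their raw counts of unique molecular identifiers (UMIs, each standing for 1 captured transcript) were read in 2 single-cell libraries of mouse CD4+ YFP+ cells, labelled TH17, and cells were then split by whether they held at least 1 Cxcr5 UMI. The control library came from Il17Cre/R26YFP mice and the other, the Id2f/f library, from Il17Cre/Id2f/f/R26YFP mice, whose cells are called Id2-deficient here. All mice carried Cre driven from Il17 and a YFP reporter in the Rosa26 locus, so YFP marks cells that switched on Il17 at some time, whether or not they still made it when collected. In the Id2f/f mice the same Cre removes Id2, an inhibitor of E protein transcription factors, and it does so only in cells in which Il17Cre has been active. All mice had been immunised with a myelin peptide (MOG) in complete Freund's adjuvant (CFA) to cause experimental autoimmune encephalomyelitis, and cells were sorted at peak disease. Age, sex and the number of mice pooled are not given in the sources used here, and the labels name lymph node in the titles, spleen in the protocol and both as the source.

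Tfh cells are the CD4 helper cells that enter B cell follicles and drive germinal centres. CXCR5 is the chemokine receptor that brings them there, and BCL6 is the repressor that fixes the Tfh programme against other helper fates. Among the remaining genes, Ascl2 and Tox2 encode DNA-binding proteins known to act early in Tfh differentiation, Tox encodes a related HMG-box factor, Pou2af1 encodes a coactivator of octamer-binding factors that is abundant in B cells, Pdcd1 encodes the inhibitory receptor PD-1, Sh2d1a encodes SAP, the adaptor of SLAM family receptors needed for stable contact with B cells, and Sostdc1 encodes a secreted antagonist of BMP and Wnt signals. E proteins act together with ASCL2-type factors at E-box sequences, and Id proteins hold E proteins away from DNA.

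After removal of barcodes with fewer than 200 genes or more than 10% of UMIs from mitochondrially encoded (mt-) genes, 4925 control and 1934 Id2-deficient cells were left. This step removed 525 Id2-deficient barcodes for their mt- share and 3 control barcodes. Cells with at least 1 UMI of Cd3d, Cd3e or Cd3g, the invariant chains of the T cell receptor, numbered 4800 and 1886. These CD3-positive cells held 32576021 and 13877222 UMIs, with a median of 5478 UMIs per cell in the control and 6382 in the Id2f/f library. Id2 itself had 10949 UMIs in 67.2% of the control cells and 173 UMIs in 2.97% of the Id2-deficient cells. Cd4 RNA was seen in 55.8% and 72.1% of the CD3-positive cells. Trdc, the constant gene of the γδ T cell receptor, was seen in 18.3% of control and 8.91% of Id2-deficient cells, but in only 2.54% and 2.06% of the cells with a Cxcr5 UMI. The libraries shared 3 barcode sequences, and whether these were the same cells was not tested. Control cells had a median mt- share of 1.75% and Id2-deficient cells one of 4.18%. With 1 library per genotype there is no test between genotypes, and every interval below covers counting error at 95% confidence and no difference between mice.

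The 9 genes lie on 8 chromosomes and are protein-coding. In GRCm38 they span chr9:44511787-44561877 on the minus strand for Cxcr5, chr16:23965052-23988852 on the minus strand for Bcl6, chr1:94038305-94052553 on the minus strand for Pdcd1, chr4:6686353-6991557 on the minus strand for Tox, chr2:163203125-163324170 on the plus strand for Tox2, chr7:142966829-142969264 on the minus strand for Ascl2, chr9:51213708-51240080 on the plus strand for Pou2af1, chrX:42502453-42529330 on the plus strand for Sh2d1a, and chr12:36314139-36318452 on the plus strand for Sostdc1. Pou2af1 overlaps a counted gene of the same strand, Gm47828, so its reads may be shared between them. The promoter sequences of Ascl2, Bcl6 and Pdcd1 are shown because these are the members among the 10 genes most like Cxcr5 in these cells, as ranked below. Each is the 250 bases before the transcription start in RefSeq's GRCm38.p6 annotation (for Bcl6 the farther upstream of the 2 starts listed), 5′ to 3′ on the gene's own strand (minus for all of them), at chr7:142969265-142969514 for Ascl2, chr16:23988853-23989102 for Bcl6 and chr1:94052554-94052803 for Pdcd1. Capitals mark each match to the E-box CANNTG, which reads the same on both strands.
Ascl2: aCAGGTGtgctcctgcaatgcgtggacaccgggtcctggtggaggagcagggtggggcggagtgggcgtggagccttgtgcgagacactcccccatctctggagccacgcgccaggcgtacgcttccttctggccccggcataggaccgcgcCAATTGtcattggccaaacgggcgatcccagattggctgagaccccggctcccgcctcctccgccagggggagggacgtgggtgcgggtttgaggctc
Bcl6: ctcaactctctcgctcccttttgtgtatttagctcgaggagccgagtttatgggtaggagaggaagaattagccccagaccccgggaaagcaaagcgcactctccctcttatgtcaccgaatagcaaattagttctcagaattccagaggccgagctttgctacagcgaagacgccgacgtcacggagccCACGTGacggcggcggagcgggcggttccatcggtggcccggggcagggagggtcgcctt
Pdcd1: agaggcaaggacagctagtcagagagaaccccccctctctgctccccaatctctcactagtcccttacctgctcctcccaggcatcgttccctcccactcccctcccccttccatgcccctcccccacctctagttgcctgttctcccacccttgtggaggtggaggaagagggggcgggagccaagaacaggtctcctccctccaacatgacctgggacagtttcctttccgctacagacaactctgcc
The Ascl2 window held CAGGTG beginning 249 bases before the start and CAATTG 98 bases before it, the Bcl6 window held CACGTG 60 bases before it, and the Pdcd1 window held no match. The windows of Tox2 (CACTTG) and Pou2af1 (CAAATG and CAATTG) also held the motif, so 4 of the 5 members with a listed promoter had one. Of all 32851 windows of the same length, 66.2% held it. A match is only a description of these letters.

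All 9 genes were higher in the Id2f/f library. Cxcr5 had 388 control and 1075 Id2-deficient UMIs, which is 11.9 (10.8 to 13.2) against 77.5 (72.9 to 82.2) UMIs per 1000000 UMIs of the group (CPM), a 6.50-fold difference (5.79 to 7.32). A Cxcr5 UMI was seen in 276 control cells (5.75%, Clopper-Pearson 5.11% to 6.45%) and in 583 Id2-deficient cells (30.9%, 28.8% to 33.1%). With cells drawn down to 2000 UMIs each (29 and 18 shallower cells dropped), these shares were 2.83% and 13.6%. Only 50.2% and 43.9% of the Cxcr5-positive cells kept a Cxcr5 UMI on thinning, so a cell without one is not thereby a cell without the transcript.

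Bcl6 was seen in 205 control cells with 286 UMIs (8.78 CPM) and in 272 Id2-deficient cells with 437 UMIs (31.5 CPM). Among the other DNA-binding factors, Tox2 stood at 19.4 and 76.7 CPM, Tox at 22.6 and 84.8 CPM, and Ascl2 at 3.13 and 10.5 CPM. The log2 ratios of Id2-deficient over control were 1.84 for Bcl6 (1.62 to 2.06), 1.98 for Tox2 (1.84 to 2.13), 1.91 for Tox (1.77 to 2.04) and 1.75 for Ascl2 (1.37 to 2.13). Pou2af1, the coactivator, stood at 4.08 and 14.1 CPM, a log2 ratio of 1.78 (1.46 to 2.11). The intervals of these 5 ratios overlap, so their order among themselves is not resolved by the counts. The receptor Pdcd1 stood at 35.3 and 95.8 CPM (log2 ratio 1.44, 1.33 to 1.56), the adaptor Sh2d1a at 146 and 323 CPM (1.15, 1.09 to 1.21), and the secreted Sostdc1 at 4.97 and 15.4 CPM (1.63, 1.33 to 1.94). Cxcr5 had the highest and Sh2d1a the lowest ratio, and their intervals did not overlap that of any other member. All 9 members were at least 1.5-fold higher, with a median log2 ratio of 1.78. Over the 11134 genes with at least 50 UMIs over both libraries, 16.3% were at least 1.5-fold higher, 9.84% at least 1.5-fold lower, and the median was 0.09.

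The size and the direction of this difference moved with the mt- share of the cells. Cxcr5-positive cells had a higher mt- share than Cxcr5-negative cells within each library, with medians of 2.25% against 1.73% in the control and 4.50% against 4.04% in the Id2f/f library. From the lowest to the highest mt- window (0 to 1%, 1 to 2%, 2 to 3%, 3 to 5% and 5 to 10%), the share of control cells with a Cxcr5 UMI was 1.29%, 2.93%, 9.90%, 22.2% and 62.5%, the last being 10 of 16 cells. In the Id2f/f library the shares in the same windows were 20%, 31.8%, 23.1%, 27.5% and 42.5%, the first from 5 and the next from 22 cells. These shares were not matched for depth. Median UMIs per cell were 3826.5 in the control and 6672 in the Id2f/f library at 3% to 5%, and 2063.5 and 5436 at 5% to 10%. Only at 0 to 1% were the control cells the deeper ones (6677 and 2350). Among cells with 2% to 3% mt- UMIs (both ends included here, which gives 1324 control and 229 Id2-deficient cells), 4 of the 7 members with enough UMIs were at least 1.5-fold higher in the Id2f/f library, with a median log2 ratio of 0.62. Of all genes in that window, 11.3% were so. Among cells with 3% to 5% (194 control and 1136 Id2-deficient), a window chosen after the data were seen, none of the 9 members was at least 1.5-fold higher, all 9 ratios were below 0, and the median was -0.58, against 9.49% of all genes higher and a median of -0.11. When cells were instead matched by rank, in 5 equal bins of each library's own cells by mt- share (also chosen after the data were seen), every member with enough UMIs was at least 1.5-fold higher in every bin, with 7 to 9 members read and medians between 1.24 and 2.49. The shares of all genes past that limit in the 5 bins, from the lowest mt- rank to the highest, were 13.6%, 13.8%, 15.9%, 16.7% and 16.4%. Genotype and mt- share cannot be told apart with these libraries: the 3% to 5% window holds 4.04% of the control and 60.2% of the Id2-deficient cells.

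**Figure D1:**
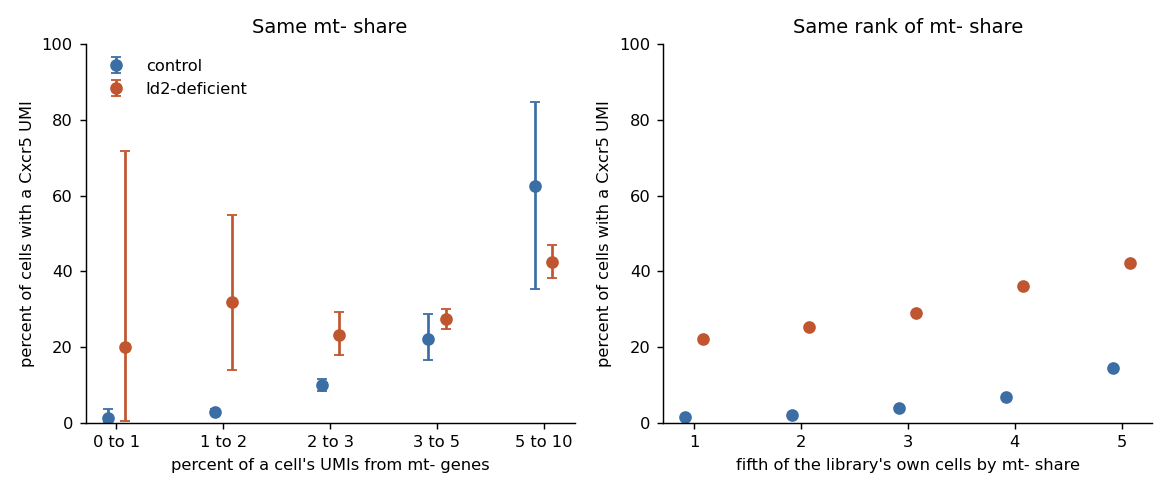
Percent of CD3-positive cells with a Cxcr5 UMI by the percent of their UMIs from mt- genes (left, bars are 95% Clopper-Pearson intervals) and by the rank of that share within the cell's own library in 5 equal bins (right). At the same mt- share the libraries come close between 3% and 5% (22.2% and 27.5%), while at the same rank the Id2-deficient share is the higher in all 5 bins.

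Within each library, all 8 other members were higher in the cells with a Cxcr5 UMI, the split that asks how far Cxcr5 marks cells with the rest of the set. In the control Bcl6 had 97 UMIs in the 276 Cxcr5-positive cells and 189 in the 4524 others, 58.8 against 6.11 CPM, a 9.62-fold difference (7.45 to 12.4). In the Id2f/f library it had 295 UMIs in 583 cells and 142 in 1303, 63.6 against 15.4 CPM, which is 4.14-fold (3.38 to 5.09). The Bcl6 levels of the Cxcr5-positive cells were thus close in both libraries, and those of the Cxcr5-negative cells were apart. Ascl2 had the widest split, 27.3 against 1.84 CPM in the control (14.8-fold, 9.79 to 22.3) and 23.9 against 3.79 CPM in the Id2-deficient cells (6.32-fold, 4.29 to 9.53). Sh2d1a had the narrowest, at 479 against 128 CPM (3.74-fold, 3.46 to 4.04) and 475 against 246 CPM (1.93-fold, 1.82 to 2.05). Pdcd1 was 7.49-fold and 3.58-fold higher, Tox 7.37-fold and 2.48-fold, Tox2 8.12-fold and 3.35-fold, Pou2af1 6.70-fold and 2.87-fold, and Sostdc1 9.12-fold and 4.19-fold, in the control and the Id2f/f library in that order. The median log2 ratio over the 8 members was 2.96 in the control, where 15.3% of 10578 genes were past 1.5-fold in the same direction and 12% in the other, and 1.79 in the Id2f/f library, where 7.75% of 9510 genes were higher and 6.03% lower. Among control cells with 3% to 5% mt- UMIs the median was 1.05, over the 4 members with enough UMIs, all 4 of them at least 1.5-fold higher, against 11.3% of all genes. Between 2% and 3%, all 5 members read in the control and all 4 read in the Id2f/f library were so, against 15% and 10.8% of all genes. The fold of Sostdc1 in the control rests in part on 1 Cxcr5-positive cell that held 26 of the 53 UMIs. Without the highest cell of each group its log2 ratio was 2.49, in place of 3.19.

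**Figure D2:**
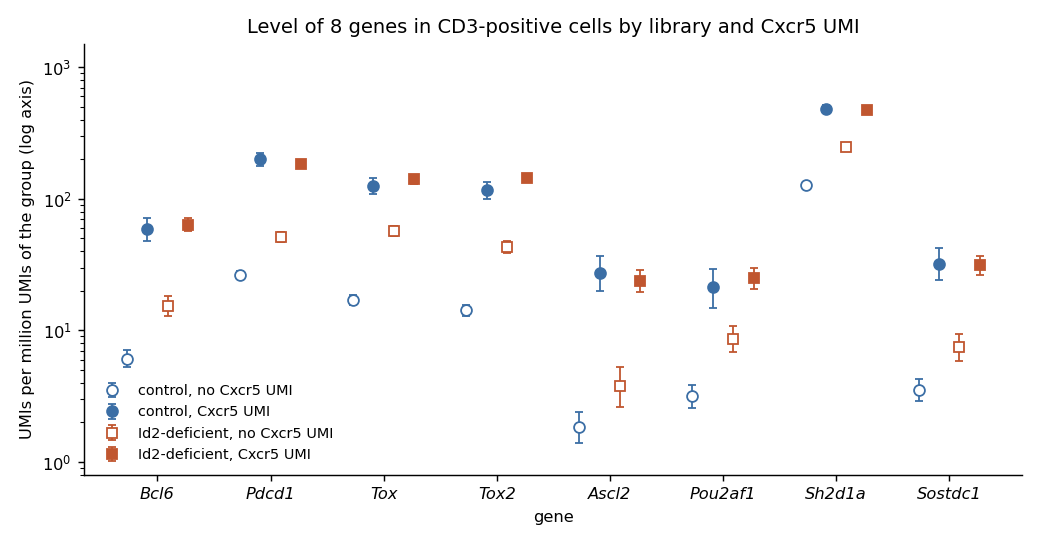
CPM of 8 genes in CD3-positive cells of the control (blue circles) and Id2-deficient library (orange squares), in cells with (filled) and without (open) a Cxcr5 UMI, on a log axis. Bars are exact 95% Poisson intervals. Filled points of both libraries lie at similar heights for each gene, and open points of the Id2-deficient library lie above those of the control. The cells behind the filled points had median depths of 4519.5 (control) and 6477 UMIs (Id2-deficient).

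Most members were higher, too, with more Cxcr5 UMIs in a cell in the Id2f/f library. Pdcd1 stood at 51.5 CPM in cells with 0 Cxcr5 UMIs, 134 with 1 (332 cells), 205 with 2 (134 cells) and 262 with 3 or more (117 cells). Bcl6 followed the same order, at 15.4, 45.8, 65.5 and 96.3 CPM, as did Ascl2, at 3.79, 11.8, 24.8 and 46.5 CPM, and Tox, Tox2 and Sh2d1a. Pou2af1 (33.7 and 28.9 CPM at 2 and at 3 or more) and Sostdc1 (58.5 and 28.1 CPM) did not keep the order at its top. In the control, with only 44 cells at 2 and 26 cells at 3 or more UMIs, Bcl6 (6.11, 51.1, 62.5 and 104 CPM) and Pdcd1 (26.5, 162, 299 and 318 CPM) kept the order. The other 6 members were lower at 3 or more than at 2 UMIs, among them Tox (250 and 130 CPM), Sh2d1a (692 and 538 CPM) and Ascl2 (75.8 CPM from 17 UMIs and 5.22 CPM from 1 UMI).

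Between libraries, 0 of the 8 members differed by 1.5-fold among Cxcr5-positive cells. These cells were not matched for depth, with medians of 4519.5 UMIs in the control and 6477 in the Id2f/f library. The gate of 1 Cxcr5 UMI was therefore not equally strict in both. The log2 ratios of Id2-deficient over control were 0.11 for Bcl6 (-0.22 to 0.46), -0.11 for Pdcd1 (-0.30 to 0.08), 0.16 for Tox (-0.07 to 0.39), -0.19 for Ascl2 (-0.70 to 0.34), 0.23 for Pou2af1 (-0.33 to 0.81), -0.01 for Sh2d1a (-0.13 to 0.11) and -0.04 for Sostdc1 (-0.50 to 0.44). Tox2, at 116 and 144 CPM, was the one member whose interval stayed above 0 (0.32, 0.08 to 0.55). The median was 0.05, against -0.01 over the 8130 genes tested, of which 8.91% were past 1.5-fold upwards and 6.21% lower. The counting intervals of Sh2d1a, Pdcd1, Tox, Tox2, Bcl6 and Sostdc1 lay within 1.5-fold, while those of Ascl2 and Pou2af1 reached beyond it. Sostdc1 stood at 0.74 once the highest cell of each group was left out, and Pou2af1 at 0.61 as a mean over cells. At equal mt- share the median member was lower in the Id2f/f library. Between 2% and 3%, 3 of the 5 members read were at least 1.5-fold lower, namely Tox (-1.01), Bcl6 (-0.75) and Pdcd1 (-0.59), with a median of -0.59, against 16.4% of all genes lower. Between 3% and 5%, 4 of 8 were, namely Ascl2 (-1.89), Pdcd1 (-1.10), Bcl6 (-0.69) and Pou2af1 (-0.63), with a median of -0.53, against 18.1% of all genes.

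Among Cxcr5-negative cells all 8 members were at least 1.5-fold higher in the Id2f/f library, with a median log2 ratio of 1.21, against 14.5% of 10889 genes higher, 9.55% lower and a median of 0.04. Tox (17.1 against 56.7 CPM; log2 ratio 1.73, 1.55 to 1.91), Tox2 (1.59, 1.39 to 1.79), Pou2af1 (1.45, 1.01 to 1.89) and Bcl6 (1.33, 1.01 to 1.65) led, followed by Sostdc1 (1.08), Ascl2 (1.04), Pdcd1 (0.96) and Sh2d1a (0.94). This difference was lost at equal mt- share: none of 5 members was 1.5-fold higher at 2% to 3% (median 0.26, with Bcl6 at -0.07; 10.5% of all genes were), and all 7 members read at 3% to 5% were below 0 (median -0.83; 10% of all genes were 1.5-fold higher). Giving the Id2f/f library the control's proportion of UMIs from Cxcr5-positive cells (5.06% in place of 33.4%) took the median log2 ratio of the 8 members over all CD3-positive cells from 1.77 to 0.92, with Tox at 1.43 and Tox2 at 1.31 as the highest and Ascl2 at 0.62 as the lowest. Both comparisons go by captured Cxcr5 UMIs, and the Cxcr5-negative cells include cells whose Cxcr5 transcript was missed. At 2000 UMIs only 50.2% of the control and 43.9% of the Id2-deficient Cxcr5-positive cells kept one. How many cells were missed in each library was not tested.

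**Figure D3:**
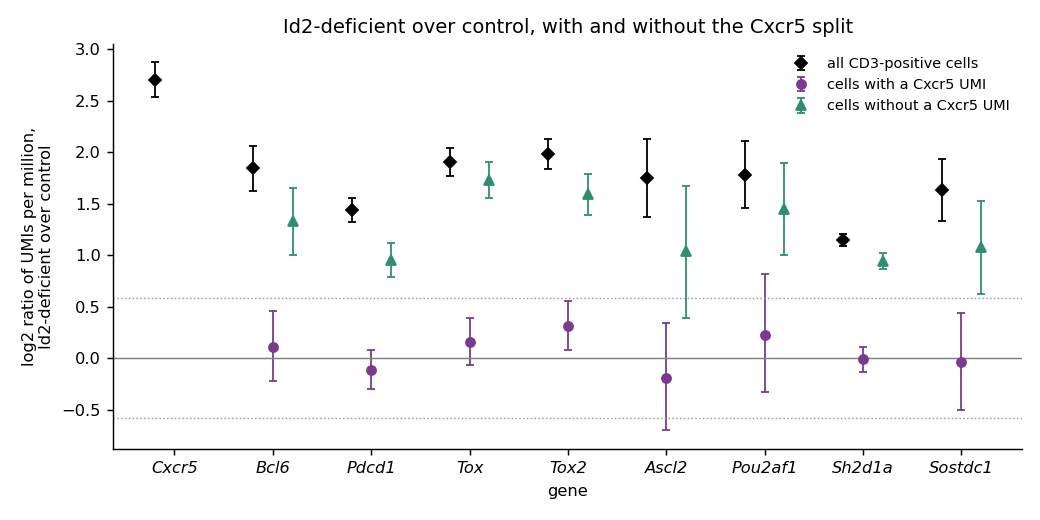
log2 ratio of CPM, Id2-deficient over control, for each gene in all CD3-positive cells (black), in cells with a Cxcr5 UMI (purple) and in cells without (green). Bars are exact 95% intervals of counting error and dotted lines mark 1.5-fold. Among Cxcr5-positive cells all 8 ratios lie between -0.19 and 0.32, and the Cxcr5-negative ratios lie between 0.94 and 1.73.

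Single cells that held 1 member tended to hold others. The observed number of cells with both genes of a pair was divided by the number expected if detection were unrelated among cells of similar depth, using 10 strata of total UMIs within a library, and a pair was read where at least 5 such cells were expected. In the control all 27 pairs read were above 1, with a median of 3.49 and a range of 1.35 to 5.78. In the Id2f/f library all 34 pairs read were above 1, with a median of 1.79 and a range of 1.16 to 4.16, and 31 had an interval above 1. Cxcr5 and Bcl6 were seen together in 61 control cells against 12.5 expected (4.87, 3.72 to 6.25) and in 164 Id2-deficient cells against 87.6 expected (1.87, 1.60 to 2.18). Cxcr5 and Pou2af1 had the highest control ratio, with 31 cells against 5.37 expected (5.78, 3.92 to 8.20). Ascl2 and Pou2af1 had the highest Id2-deficient ratio, with 28 cells against 6.73 expected (4.16, 2.77 to 6.01), and Bcl6 and Sostdc1 followed with 22 against 5.32 (4.14, 2.59 to 6.27). Pairs with Sh2d1a had the lowest ratios in both libraries. Tox and Sh2d1a, for example, shared 304 control cells against 226 expected (1.35) and 513 Id2-deficient cells against 442 (1.16). Sh2d1a was seen in 44.9% and 69.7% of cells, and a gene seen that often leaves little room above 1: the ratio of Tox and Sh2d1a could not have passed 2.17 in the control and 1.42 in the Id2f/f library.

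Of the 27 pairs read in both libraries, all 27 had the higher ratio in the control. The same ceiling bears on this, since every member was seen in a larger share of the Id2-deficient cells. The odds ratio over the same depth strata, which has no such ceiling, was higher in the control for 23 of the 27 pairs, with medians of 6.55 and 3.77. The 4 exceptions were Pdcd1 with Ascl2 (21.1 in the control, 26.4 in the Id2f/f library), Tox with Ascl2 (9.14 and 18.7), Pdcd1 with Sh2d1a (2.22 and 2.47) and Tox with Sh2d1a (2.11 and 2.49). They were named after their values were seen. Among Cxcr5-positive cells alone the remaining pairs came closer to 1, with medians of 1.25 (22 pairs) and 1.34 (26 pairs), and 11 of the 22 pairs read in both libraries had the higher ratio in the control. Among Cxcr5-negative cells the medians were 2.82 (16 pairs) and 1.75 (18 pairs), with all 34 ratios above 1. Members were thus seen together beyond depth also in cells in which no Cxcr5 UMI was captured.

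**Figure D4:**
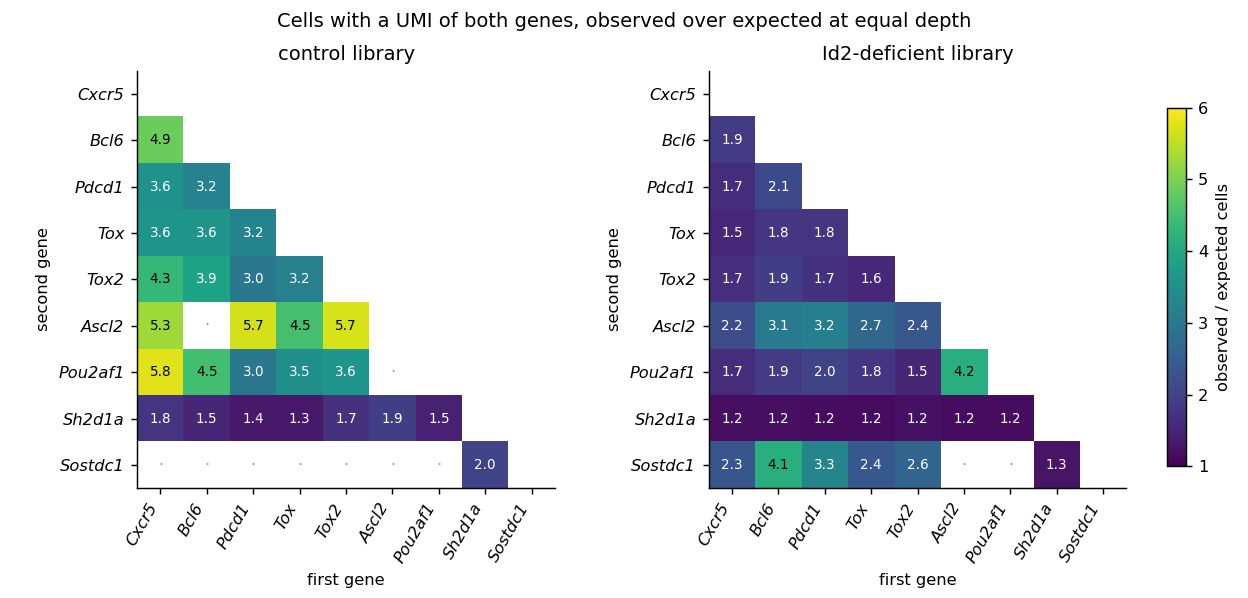
Observed over expected number of CD3-positive cells with a UMI of both genes, for each pair in the control (left) and Id2-deficient library (right), with the expectation taken within 10 strata of depth. Dots mark pairs with fewer than 5 cells expected. The values run from 1.35 to 5.78 in the control and from 1.16 to 4.16 in the Id2-deficient library, with the Sh2d1a row the darkest in both.

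The combination Cxcr5, Bcl6 and Pdcd1 was held by 42 control cells (0.875%, 0.631% to 1.18%) and by 123 of the Id2-deficient ones (6.52%, 5.45% to 7.73%). Adding Tox2 left 25 and 96 cells. At the other end, 45.0% of control and 17.5% of Id2-deficient cells held no UMI of any of the 9 genes, and 29.0% and 19.5% held Sh2d1a alone. With every cell thinned to 2000 UMIs, at least 3 of the 9 genes were seen in 155 of 4771 control cells (3.25%, 2.76% to 3.79%) and in 232 of the 1868 that were Id2-deficient (12.4%, 11.0% to 14.0%). Without thinning these shares were 8.56% and 36.3%. Among Cxcr5-positive cells, thinned, the shares with at least 3 of the 9 were 30.9% (25.4% to 36.8%) and 29.8% (26.1% to 33.7%), and among Cxcr5-negative cells 1.60% (1.25% to 2.01%) and 4.65% (3.57% to 5.95%).

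**Figure D5:**
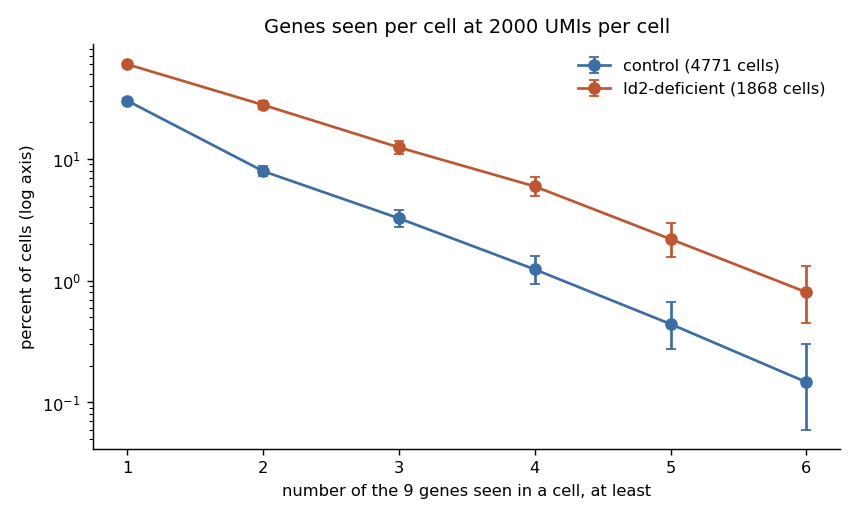
Percent of CD3-positive cells, each thinned to 2000 UMIs, in which at least the given number of the 9 genes had a UMI, on a log axis with 95% Clopper-Pearson bars. The Id2-deficient library (orange) lies above the control (blue) at each number, for example 12.4% against 3.25% at 3 genes.

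Sostdc1 differed from the other members in how its UMIs were spread. Its 162 control UMIs came from 34 cells and its 214 Id2-deficient UMIs from 40 cells, 4.76 and 5.35 UMIs per positive cell, against 1.25 to 3.41 for the other members over both libraries. The 10 highest cells held 67.3% and 58.4% of its UMIs. No Sostdc1-positive cell lacked all other members, and the median such cell held 4 others in the control and 5 in the Id2f/f library. Pdcd1 was seen in 26 of the 34 and 35 of the 40, and Cxcr5 in 13 of the 34 and 28 of the 40. Ascl2, also rare, was seen in 68 and 80 cells, of which 49 and 71 held Pdcd1 and 28 and 55 held Cxcr5. Its positive cells held a median of 4 and 5 other members. Sh2d1a-positive cells, by contrast, held a median of 0 and 1. In the control 64.7% of Sh2d1a cells held no other member, against 28.0% in the Id2f/f library. For Bcl6 the share without any other member was 16.6% and 2.21%.

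Cells of other types bear on a few members. Among CD3-negative cells with at least 3 UMIs of a set of B cell marker genes, Cd79b among them (38 control and 33 Id2-deficient cells, with median depths of 3647 and 4954 UMIs), Pou2af1 was seen in 12 and 9 cells, Cxcr5 in 6 and 8, and Bcl6 in 2 and 2. Pdcd1, Tox, Tox2, Ascl2, Sh2d1a and Sostdc1 were seen in 0 of the 38 and 0 of the 33, which allows shares of cells with a UMI of up to 7.89% and 9.09% (3 cells of the total). In the 83 CD3-negative control cells without such UMIs, Cxcr5, Pdcd1, Tox2, Pou2af1, Sh2d1a and Sostdc1 were at 0 (up to 3.61%), Tox and Ascl2 were each seen in 1 cell, and Bcl6 was seen in 14 (16.9%), a larger share than in the CD3-positive cells. Among CD3-positive cells, 711 control and 143 Id2-deficient cells held a UMI of that set, 695 and 137 of them one of Cd79b. Such cells were a smaller share of the Cxcr5-positive (2.54% and 2.06%) than of the Cxcr5-negative cells (15.6% and 10.1%). The summed level of a wider list of 10 B cell markers was 426 CPM in the control and 362 CPM in the Id2-deficient CD3-positive cells, and 223 and 350 CPM in their Cxcr5-positive cells, with no marker at 0 in any group. Most of these UMIs were of Ighm, the IgM heavy chain gene (12087 of 13883 and 4268 of 5024), which stood at 179 CPM in Cxcr5-positive against 381 CPM in Cxcr5-negative control cells, and at 303 against 310 CPM in the Id2-deficient ones. Of the 6 markers with enough UMIs, 4 were at least 1.5-fold higher and 2 lower in Cxcr5-positive control cells (15.3% and 12% of all genes). Among these 4, the 18 Cd79a UMIs came from 1 of the 276 cells, and so did the 4 Ms4a1 UMIs. The log2 intervals of Cd79a (-0.15 to 1.32) and Ms4a1 (-1.35 to 2.03) included 0. Those of Ebf1 (0.06 to 2.25) and Ighd (0.98 to 3.04) lay above 0. In the Id2f/f library 2 of 6 were higher and 1 lower (7.75% and 6.03% of all genes). Cd79b was lowest in both (9.09 against 40.4 and 6.69 against 30.8 CPM). The rarer Cd22 (4.85 against 1.23 and 8.63 against 1.41 CPM) and Ighd (6.67 against 1.58 and 9.71 against 6.38 CPM) were higher in both libraries. Control Cd22 had 8 and 38 UMIs, under the limit for comparison. Without any cell holding a UMI of that set, all 9 members stayed at least 1.5-fold higher in the Id2f/f library. In the control, 1 Cxcr5-negative cell held 16 of the 133 Pou2af1 UMIs. The 7 myeloid markers summed to 1754 CPM in the control and 165 CPM in the Id2-deficient cells, but to 183 and 130 CPM in their Cxcr5-positive cells, with 1 of the 7 at 0 in each. Of the 57146 control UMIs, S100a8 held 22783 and S100a9 23888. Between libraries 6 of the 7 were at least 1.5-fold lower (9.84% of all genes), and Csf1r was not (log2 ratio 0.34, -0.50 to 1.14). Among Cxcr5-positive cells Lyz2 was higher in the Id2f/f library (2.43 and 16.0 CPM), and Cst3 was lower (146 and 109 CPM). The 4 globin genes summed to 189 and 4.11 CPM, the 4 γδ T cell genes to 324 and 220 CPM, the 6 plasma cell genes to 147 and 75.2 CPM, and both CD8 genes to 12.2 and 17.9 CPM. The 7 T cell genes (Cd3d, Cd3e, Cd3g, Trac, Trbc1, Trbc2 and Cd4), which are not all particular to αβ T cells, stood at 6136 and 7958 CPM. The 3 genes of regulatory T cells (Foxp3, Il2ra and Ikzf2) summed to 72.4 and 134 CPM, and were higher in Cxcr5-positive than in Cxcr5-negative cells, at 123 against 69.7 CPM in the control and 180 against 111 CPM in the Id2f/f library. Only Ikzf2 rose in this way (log2 ratios of 1.66 and 1.20). Il2ra was lower in the Cxcr5-positive cells of both libraries (-0.90 and -2.05). Foxp3, with 2 and 7 UMIs there, was lower too (-1.31, -4.38 to 0.58, and -1.48, -2.89 to -0.31). Foxp3 was seen in few cells of any group (1.25% of control and 0.795% of Id2-deficient cells), among them 1 of the 276 and 2 of the 583 Cxcr5-positive cells. Without cells holding a Trdc UMI, too, all 9 members were at least 1.5-fold higher in the Id2f/f library, and the part of the remaining cell types was not tested.

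Of 25 other genes of the Tfh programme, 23 passed 1.5-fold in the Id2f/f library (median log2 ratio 1.52), all upwards, led by Cebpa (2.67), a transcription factor best known from myeloid cells, and Il21 (2.54), the cytokine of B cell help, with Cd40lg (0.35) and the E protein gene Tcf3 (0.45) lowest. This list was chosen with earlier results of these data known, so its direction is not independent evidence. Ratios at equal mt- share are not given for it or for the lists of opposed and Th17 genes below. With the Cxcr5 split, 22 of 25 were higher in the control (median 1.5) and 14 of 25 in the Id2f/f library (median 0.66). Il4, a cytokine of germinal centre help, and Cebpa had the highest ratios in both libraries, at 4.03 and 3.87 in the control and 2.68 and 2.48 in the Id2f/f library. The lowest were Irf4 (-0.21) and Tcf3 (0.29) in the control, and Lef1 (0.07) and Slamf6 (0.12) in the Id2f/f library. Within Cxcr5-positive cells 10 of 25 were higher in the Id2f/f library (median 0.42), with the factor Irf4 (1.49, from 10 and 79 UMIs) and the signalling regulator Rgs16 (0.93) highest and Il4 (-0.38) and Tigit (-0.22) lowest. Within Cxcr5-negative cells 20 of 25 were higher (median 1.18), with Id3 (2.65) and Il21 (2.38) highest and Cd40lg (0.23) and Tigit (0.28) lowest. Of all genes, 16.3% were higher between libraries over all CD3-positive cells, 8.91% within Cxcr5-positive and 14.5% within Cxcr5-negative cells. With the Cxcr5 split, 15.3% were higher in the control and 7.75% in the Id2f/f library. Id3, the other Id protein of T cells, stood at 31.7 CPM in Cxcr5-negative and 184 CPM in Cxcr5-positive control cells, and at 199 and 234 CPM in the Id2-deficient cells.

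Of 19 genes that oppose the Tfh fate or are shut off in it, a list also chosen with earlier results of these data known, 11 were at least 1.5-fold lower in the Cxcr5-positive control cells (median -0.77) and 11 of 17 in the Id2f/f library (median -0.98). In the control the cytotoxic granule gene Gzmb (-3.69, -5.97 to -2.14, from 3 and 725 UMIs) and Id2 (-1.81) were lowest and Stat5a (0.94) and Stat5b (0.64) highest. In the Id2f/f library Id2, at 2 UMIs in the Cxcr5-positive cells, and the interleukin 2 receptor gene Il2ra (-2.05) were lowest and Il2rb (0.43) and Stat5a (0.41) highest. Between libraries 6 of the 19 were higher and 7 lower over all CD3-positive cells, with Id2 (-4.75) and Gzmb (-3.37) lowest and the factor Bach2, at 1.04, among the higher ones. Id2 is the gene removed in the Id2f/f mice, so its place among the lower genes between libraries is set by the design. This holds for the counts within Cxcr5-positive and Cxcr5-negative cells too. Within Cxcr5-positive cells 2 of 16 were higher and 6 lower, with Klf2, a factor that restrains Tfh differentiation, at -1.91. Within Cxcr5-negative cells 7 of 19 were higher and 5 lower. Of 15 Th17 genes, 9 were lower in Cxcr5-positive control cells and 8 in Cxcr5-positive Id2-deficient cells. The cytokine gene Il17f was lowest in the control, with 3 UMIs in the Cxcr5-positive cells (log2 ratio -3.55). The chemokine receptor gene Ccr2 was at -2.19 and -2.90 there. Il17a, also a cytokine gene, had 3 UMIs in the Cxcr5-positive control and 4 in the Cxcr5-positive Id2-deficient cells, log2 ratios of -2.53 (-4.82 to -0.97) and -3.51 (-5.42 to -2.11). Batf (1.05 and 0.93) and Il22 (0.73 and 1.86) went the other way. Between libraries 2 of the 15 Th17 genes were higher and 4 lower over all CD3-positive cells. The corresponding counts were 2 and 2 of 14 among Cxcr5-positive and 2 and 3 of 15 among Cxcr5-negative cells. For both lists, the shares of all genes higher and lower between libraries were 16.3% and 9.84% over all CD3-positive cells. They were 8.91% and 6.21% among Cxcr5-positive and 14.5% and 9.55% among Cxcr5-negative cells. With the Cxcr5 split, 12% of all genes were lower in the control and 6.03% in the Id2f/f library.

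The genes whose distribution was most like that of Cxcr5 were ranked by the lower bound of their ratio between cells with and without a Cxcr5 UMI, taking the smaller of both libraries, among 9275 genes in CD3-positive cells without B cell UMIs. The first 10 were Krt83, Il4, Cebpa, Ascl2, Gm31814, Bcl6, Padi4, Cxxc5, Pdcd1 and Ier5l. Krt83, a keratin gene, stood at 73.0 against 10.4 CPM in the control and 67.0 against 8.82 CPM in the Id2f/f library, log2 ratios of 2.81 and 2.93. The members held ranks 4 (Ascl2), 6 (Bcl6), 9 (Pdcd1), 12 (Sostdc1), 15 (Tox2), 34 (Tox), 35 (Pou2af1) and 65 (Sh2d1a). The points behind these ranks share cells, libraries and depth, and the ranks are a description. Ranked the same way for the other members, Cxxc5 was among the first 3 for Pdcd1, Tox, Tox2, Ascl2, Pou2af1 and Sostdc1. Ascl2 was among the first 3 for Pdcd1, Tox and Pou2af1, and Sostdc1 was so for Pdcd1. The first 3 for Bcl6 were Gm31814, Padi4 and Rgs16, and those for Sh2d1a were Penk, Il4 and Cebpa. Apoe was among the first 3 for Ascl2 (147 against 10.1 CPM in the control and 601 against 33.3 CPM in the Id2f/f library) and first for Sostdc1.

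Within the control library, where Id2 is intact, the members also differed with Id2 RNA. A Cxcr5 UMI was seen in 209 of 1575 control cells without an Id2 UMI (13.3%, 11.6% to 15.0%) and in 67 of 3225 with one (2.08%, 1.61% to 2.63%), although the former were the shallower cells (median 4699 against 5864 UMIs). All 9 members were at least 1.5-fold higher in the cells without an Id2 UMI, with a median log2 ratio of 2.03, against 6.84% of 10578 genes and a median of 0.03 over all of them. Ascl2 had 85 UMIs in the cells without and 17 in the cells with Id2, 10.1 against 0.70 CPM (log2 ratio 3.85, 3.08 to 4.69). Tox2 (49.4 against 8.98 CPM; 2.46) and Bcl6 (168 against 118 UMIs; 2.03) lay between, and Sh2d1a (265 against 104 CPM; 1.34, 1.26 to 1.42) was lowest. This split was chosen after the data were seen.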

How the data were processed

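UMI counts were measured in 2 single-cell 3′ libraries of CD4+ YFP+ cells, 1 per genotype. The deposited files hold whole-number UMI counts per gene and cell barcode. Per the file headers they were written by Cell Ranger 5.0.1, while per the submitters' processing notes the version was 1.3 and the build mm10. The barcode lists had been filtered before deposit, by a rule not given in the sources used here. Such filtering, free RNA and depth all bear on how often a rare transcript is seen.

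Barcodes under 200 genes or over 10% mt- UMIs were dropped, and cells were called CD3-positive with at least 1 UMI of Cd3d, Cd3e or Cd3g. No doublet caller was run. Alternatives leave out cells with B cell UMIs and the 4% deepest cells. UMIs were summed per group and divided by the group's total (CPM). Genes with at least 50 UMIs over both groups were compared, and 1.5-fold was used as the limit for counting a gene as higher or lower. Intervals are exact Poisson, Clopper-Pearson and conditional binomial ones at 95%. Where a count was 0, the upper limit is 3 counts of the total. Thinning drew 2000 UMIs per cell without replacement. Interval coverage and the co-detection ratio were tested on simulated data. The members, and the lists of other Tfh genes and of opposed genes, were chosen with earlier results of these data known, so their direction is not independent evidence. All members are named, with the 2 highest and 2 lowest genes of a list (where 1 to 3 UMIs lie behind a ratio, the count is given), the 10 genes most like Cxcr5 and up to 3 for each other member. Items withheld from this text are not reported here. Python 3.11.15, numpy 2.4.6, scipy 1.17.1, pandas 2.3.3 and matplotlib 3.10.9 were used. Coordinates are from GENCODE M21 (GRCm38) and promoters from RefSeq.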

Additional observations from a re-analysis of the deposited data

Results flagged for a closer look

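Members were also seen in barcodes outside the comparisons. The Id2-deficient library held 276 CD3-positive barcodes with more than 10% mt- UMIs, left out of every comparison, against 2 in the control. In those 276 barcodes Cxcr5 stood at 117.3 CPM, Tox at 157.4, Tox2 at 89.5, Pdcd1 at 74.07, Bcl6 at 43.21 and Pou2af1 at 24.69. Each of these 6 levels had a Poisson interval above that of the control's CD3-positive cells, where the levels were 11.9, 22.6, 19.4, 35.3, 8.78 and 4.08 CPM in the same order. Cxcr5 was seen in 33 of the 276 barcodes (12.0%). Sh2d1a, at 123 CPM (88.2 to 168), was not above the control's 146 CPM, and Sostdc1 had no UMI there.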

How the results depend on the processing

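Across the alternative settings and the mt- windows and bins added after the data were seen, 127 summary values stayed within the counting error of the reported one (counts of members within 1.5 times), 20 moved further and 2 changed sign from a value past 1.5-fold. Of the values of single genes and pairs, 703 stayed, 111 moved and 17 changed sign in this sense. These 19 sign changes came from the mt- windows. Of the values within 1.5-fold, all of the comparison among Cxcr5-positive cells, 6 gene ratios and 2 medians turned in the windows, and 7 gene ratios and 2 medians under other settings. Between libraries, at 2% to 3% mt- UMIs, 4 members were higher (median log2 ratio 0.62), Cxcr5-positive cells had a median of -0.59, and Cxcr5-negative cells had 0 members higher, a median of 0.26 and Bcl6 at -0.071. With the Cxcr5 split in that window, 5 control members (median 2.67) and 4 Id2-deficient members were higher. At 3% to 5%, over all CD3-positive cells, 0 members were higher, the median was -0.58, and the ratios were -0.27 for Cxcr5, -0.87 for Bcl6, -1.07 for Pdcd1, -0.31 for Tox, -0.26 for Tox2, -1.83 for Ascl2, -0.58 for Pou2af1, -0.38 for Sh2d1a and -2.16 for Sostdc1. In that window Cxcr5-positive cells had a median of -0.53. Cxcr5-negative cells had 0 members higher, a median of -0.83, and ratios of -1.42 for Bcl6, -1.37 for Pdcd1, -0.55 for Tox, -0.83 for Tox2, -0.79 for Pou2af1, -0.50 for Sh2d1a and -3.48 for Sostdc1, and the control's Cxcr5 split gave 4 members with a median of 1.05. Fewer cells and fewer members with enough UMIs entered these windows, and the cause was not tested. In 5 bins by rank of mt- share the medians that moved were 2.49 (bin 2) and 1.24 (bin 5). With at least 2 Cxcr5 UMIs the split's medians were 3.52 (control) and 2.13 (Id2-deficient). Among Cxcr5-positive cells, 1 member (Pou2af1, 0.61) passed 1.5-fold with per-cell means, and 1 (Sostdc1, 0.74) without each gene's highest cell. The fold of the share of cells with at least 3 members was 3.82, and 3.0 at 1000 UMIs. Leaving out B cell UMIs, Trdc cells or the deepest cells changed no count of members by over 1.5 times. No paired analysis was possible because each group has 1 library. How mice differ cannot be read from 1 library each.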
